A study of Mus musculus with 8 samples.

Results

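Subunits of the 5 complexes of oxidative phosphorylation were followed in ribosome-bound RNA of the mouse hippocampus, with and without the gene for CTCF in excitatory neurons. Members were taken by name from the gene names of the array: names of the forms Nduf (A, B, C, S or V and a number) for complex I, Sdha to Sdhd for complex II, Uqcr and Cyc1 for complex III, Cox4 to Cox8 for complex IV and Atp5 for complex V, with Cycs for cytochrome c. This gave 83 of 35715 gene names, of which 36 belong to complex I, 4 to complex II, 9 to complex III, 15 to complex IV, 18 to complex V and 1 is Cycs. The name pattern is not the whole machinery: it leaves out Cox4i1 and Ndufab1, takes in the pseudogene Atp5c1-ps, and puts Ndufa4 with complex I although the protein is also known as a complex IV subunit. Among the complex V names, Atp5s and Atp5sl stand in RefSeq as Dmac2l and Dmac2, and Atp5f1 as Atp5pb.

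Complexes I and II take electrons from NADH and succinate and pass them through ubiquinone to complex III, and cytochrome c carries them on to complex IV, where oxygen is reduced. Complexes I, III and IV pump protons across the inner mitochondrial membrane, and complex V, the ATP synthase, uses their return to make ATP. Most subunits are encoded in the nucleus and imported, while a smaller set is encoded by mitochondrial DNA. Neurons of the hippocampus depend on this pathway for the energy that synaptic transmission and ion pumping need.

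The samples were 8 hippocampi on 1-colour Agilent arrays, 1 array per mouse. In the RiboTag method Cre recombinase switches on a haemagglutinin-tagged ribosomal protein, Rpl22, and tagged ribosomes are pulled down with the RNA they carry; here Cre was driven by Camk2a, a promoter of forebrain excitatory neurons. The 4 WT mice were labelled Ctcf wild type, Camk2a-Cre positive and Ribotag positive, and the 4 CKO mice Ctcf loxP/loxP, Camk2a-Cre positive and Ribotag positive. All were C57BL/6 mice at least 3 months old without treatment. Each group held 3 males and 1 female, and the females were WT 3 and CKO 2. The series' own design text gives the controls as loxP homozygotes too, and the sample labels were followed. Slide 1 held WT 1 alone, slide 2 held WT 2 and WT 3 beside CKO 1 and CKO 2, and slide 3 held WT 4 beside CKO 3 and CKO 4. Its product, CTCF, is a DNA-binding factor that anchors loops of the chromosomes. Levels are log2 of the processed spot signal minus the array's 75th percentile, called normalized log2 signal here, and a difference is CKO minus WT on that scale. Ctcf itself stood at -1.37 ± 0.30 in WT and -2.24 ± 0.29 in CKO (SD, n = 4 each) and its groups did not overlap. The difference was -0.87 (SE 0.22; exact two-sided permutation p = 0.0286, the smallest that 35 splits allow; limma adjusted p = 0.724 over all genes). Where the probe lies relative to the deleted part of the gene is not given in the sources used here.

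The array reads each member through probes of 60 bases, and the opening 30 bases of the probe are shown, 5′ to 3′, for the 6 members whose WT and CKO values did not overlap, since these are the sequences behind the separated groups described below. All are in lower case, as no base in them is singled out.

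Cox7a1: acaacgtcctgtacagactgaccatgacgc
Atp5e: agcctgaagtgctgagtcttgaaggtgaag
Ndufa5: tgacctcagtgtcagatggtggatgggaat
Ndufb8: taccagcctgtgggtccgaagcagtaccct
Ndufa13: gagatgagcaatgccaacttcggcttcacc
Atp5g3: ccgaagactgtagtactggtgtcatggaaa

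In mm9, the build of the scanner files, the probe of Atp5e lies at chr2:174286656-174286715, that of Atp5g3 at chr2:73746519-73746578, that of Ndufa5 at chr6:24468666-24468725 and that of Ndufa13 at chr8:72418102-72418161. The probes of Cox7a1 and Ndufb8 have no position in the files, and no annotation of exons or UTRs in mm9 was used. Members of this family have many near-identical copies in the genome, and 25 of the 115 member probes are placed on another chromosome than the one RefSeq gives for the gene. Atp5l, the g subunit of the ATP synthase, shows this most plainly with 6 probes, 4 of which share a stretch that differs at only 4 positions, written in capitals.

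Atp5l probe at chrX:35750466-35750525: ggaccatgtgtaaCGGgacTgctatctgaa
Atp5l probe at chr10:95599587-95599646: ggaccatgtgtaaCGGgacCgctatctgaa
Atp5l probe at chr6:66696339-66696398: ggaccatgtgtaaCAGgacTgctatctgaa
Atp5l probe at chr6:105481860-105481919: ggaccatgtgtaaAGAgacTgctatctgaa

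In the order shown, their differences were 0.23 (SE 0.17), 0.24 (SE 0.26), 0.30 (SE 0.21) and 0.32 (SE 0.20), all above 0 and all within 1 SE of each other. Signal of such probes cannot be assigned to the gene or its copies. For 9 member genes the probe that stands for the gene is itself placed on another chromosome, among them Ndufb11, Ndufs5 and Cox7c. These genes are counted with the others below.

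Of the 83 members, 81 were tested, each well above background on all 8 arrays. The other members, Cox7b2 and Cox8c, were well above background on none of the 8; these are isoforms of complex IV subunits known from testis. Members were among the brightest genes measured: the 29529 genes tested were split into 10 equal deciles of mean signal, and 51 of the 81 members lay in the brightest decile and 70 in the brightest 2.

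None of the 81 members differed between the genotypes after adjustment over all genes (limma with Benjamini-Hochberg adjustment, adjusted p from 0.724 to 0.997). The background was 1 gene of 29529, or 0.00339%. At an unadjusted p under 0.05, 2 members were higher in CKO, Cox7a1 and Atp5e, and 0 were lower, where 2.5% of all genes passed as higher, 2.8% passed as lower, and 7.08% of the brightest decile passed as higher. In direction the members were uniform: 79 of 81 had a difference above 0, against 41.5% of all genes and 74.5% of the brightest decile. Their median difference was 0.22, a ratio of 1.17, with single members between -0.13 and 0.44 and standard errors of 0.14 to 0.44. The median over all genes was -0.078.

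That median moved with brightness across the whole array. Genes in the dimmest decile had a median difference of -0.52, and the median climbed through every decile to 0.16 in the brightest. Set against genes of their own decile, members had a median difference 0.075 higher, and 65 of 81 lay above their decile's median. In RNA pulled down from a whole hippocampus, a change in the number of cells of a type and a change in ribosome-bound RNA per cell cannot be told apart.

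**Figure D1:**
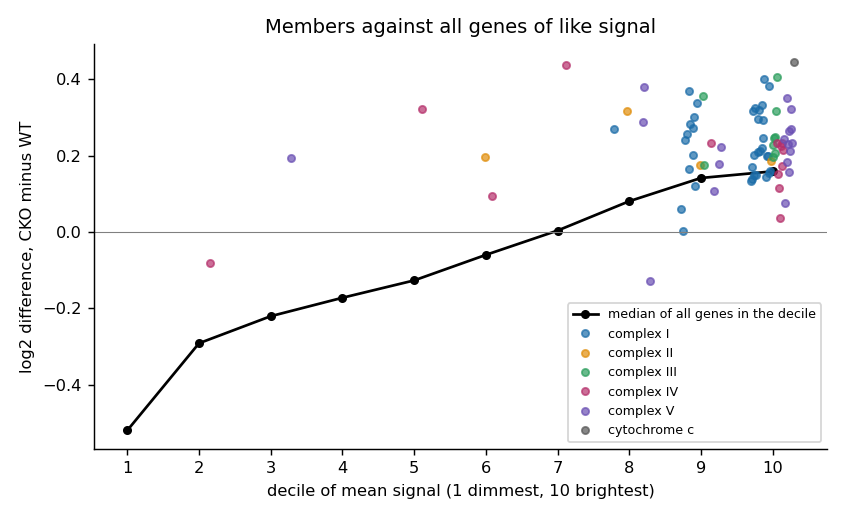
Log2 difference between genotypes (CKO minus WT, y axis) of the 81 tested members, by the decile of mean signal they fall in (x axis, 1 dimmest to 10 brightest), coloured by complex and spread sideways within a decile. The black line joins the median of all genes in each decile, from -0.52 to 0.16, and 65 of the 81 members lie above it.

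The scaling of the arrays set the size of the members' median. It was 0.37 with median scaling, 0.11 with quantile normalization, 0.086 with cyclic loess, 0.093 with quantile normalization after normexp, a model-based background correction, and 0.066 from the authors' deposited values, where 62 of 81 members stayed above 0. The medians of the brightest decile moved alongside, from 0.30 with median scaling to -0.021 in the authors' values. Set against their own decile, members lay between 0.069 and 0.086 over these scalings. Median scaling shifts all genes of an array alike, so it cannot change this value, 0.075 there as in the chosen scaling. Quantile normalization and cyclic loess move genes of like signal together, so they could change it little. The small spread over scalings is therefore no test of its stability. With other sets of arrays the value ran from 0.039 (within slide 3) to 0.12 (males only). The members' median itself moved with that of other bright genes.

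**Figure D2:**
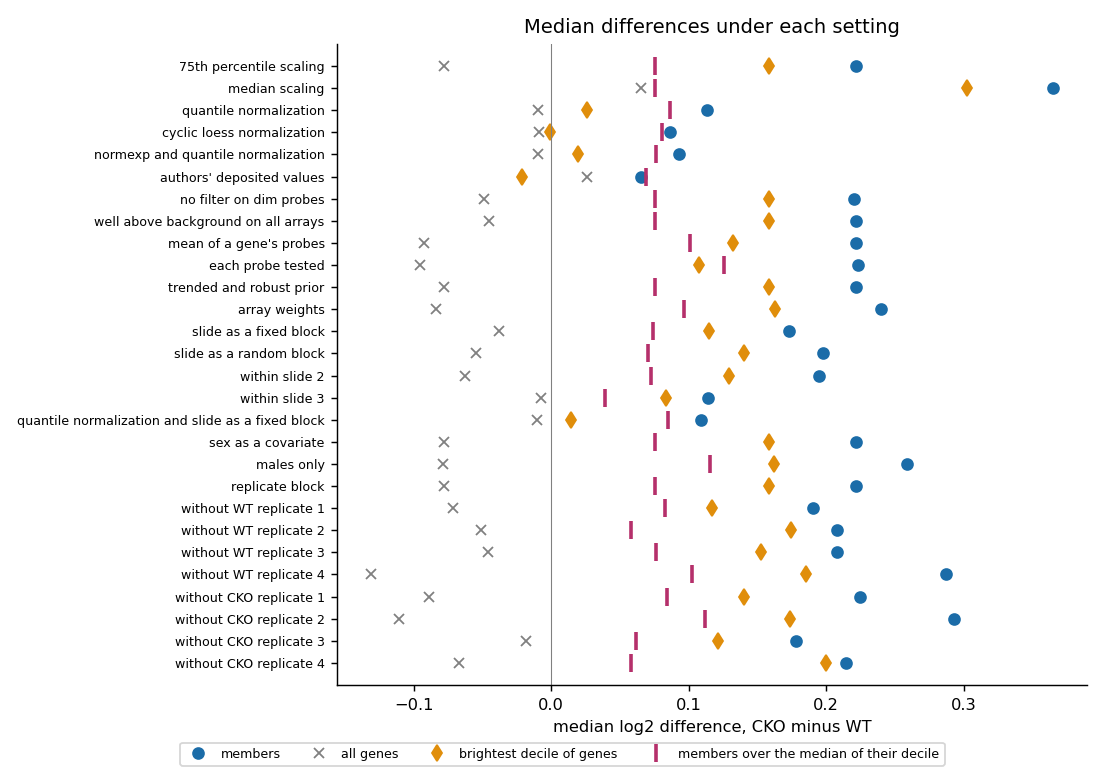
Median log2 difference (CKO minus WT, x axis) of the members, of all genes and of the brightest decile of genes, and the members' median over the median of their own decile, for the chosen scaling (top) and each alternative (y axis). The members' median runs from 0.066 to 0.37, and the vertical ticks stay between 0.039 (within slide 3) and 0.13 (each probe tested).

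Array by array, the groups overlapped. With each gene centred on its own mean, the median member stood at -0.22, -0.16, -0.17 and 0.10 in WT 1 to 4 and at 0.11, -0.080, 0.28 and 0.12 in CKO 1 to 4. WT 4 was thus close to CKO 1 and CKO 4, and CKO 2 was closer to the other WT mice than to CKO 3. WT 4 was the highest WT array for 62 of 81 members, CKO 2 the lowest CKO array for 52, and WT 4 lay above CKO 2 for 61. Against genes of the same decile the medians were -0.021, -0.14, -0.078 and 0.078 in WT 1 to 4, and -0.0024, -0.13, 0.095 and 0.14 in CKO 1 to 4. Within slide 2 the members' median difference was 0.19, with 74 of 81 above 0, and within slide 3 it was 0.11, with 62 above 0. With the slide as a fixed block it was 0.17.

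**Figure D3:**
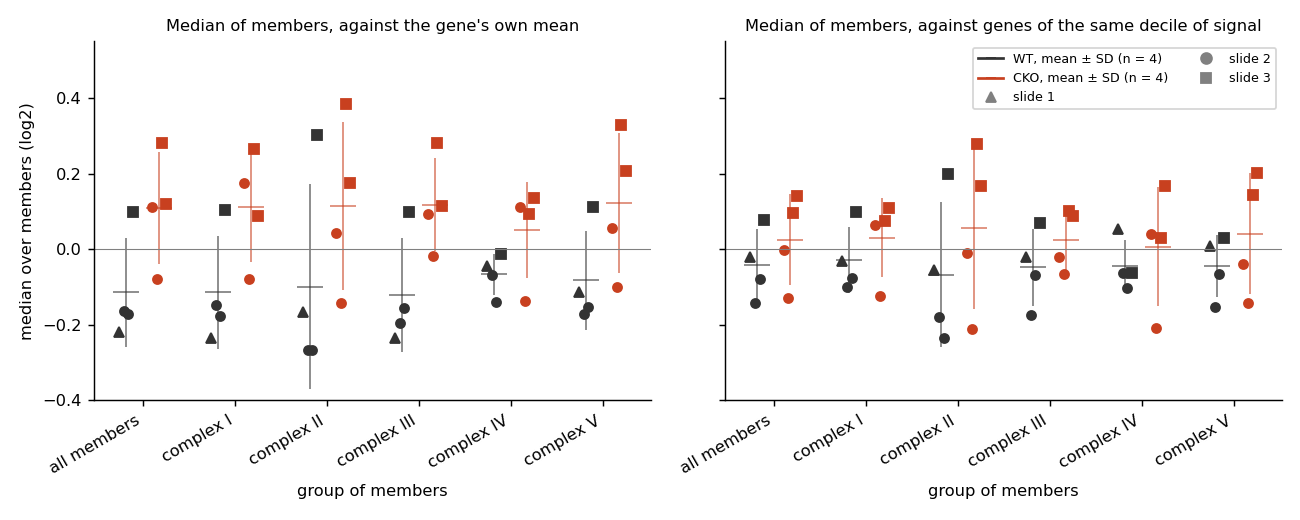
Median over the members of each complex (y axis, log2) on each array, with the gene's own mean taken off (left) and with the median of genes in the same decile of signal taken off as well (right). Black marks are the 4 WT arrays and red marks the 4 CKO arrays, shapes give the slide, and lines are mean ± SD (n = 4): for all members on the left -0.11 ± 0.14 in WT and 0.11 ± 0.15 in CKO, with WT 4 the highest WT array.

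The complexes did not stand apart from one another. The median difference was 0.22 for complex I, 0.19 for complex II, 0.25 for complex III, 0.22 for complex IV and 0.23 for complex V. Above 0 were 36 of 36, 4 of 4, 9 of 9, 12 of 13 and 17 of 18 members, in that order. Above the median of their own decile were 27, 4, 9, 10 and 14. The differences between complexes were not tested.

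**Figure D4:**
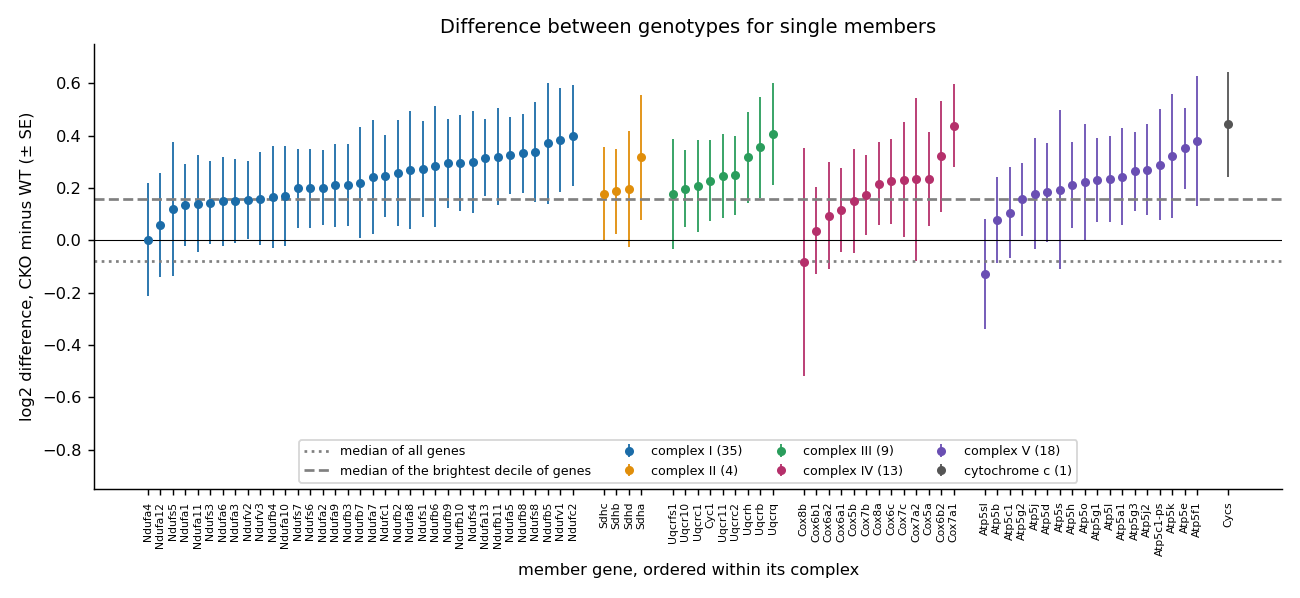
Log2 difference between genotypes (CKO minus WT, y axis) with its standard error for 80 of the 81 tested members (x axis), ordered within each complex. The dashed line is the median of the brightest decile of genes (0.16) and the dotted line that of all genes (-0.078); only Cox8b (-0.082) and Atp5sl (-0.13) lie below 0.

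Groups did not overlap for 6 of the 81 members, all higher in CKO: Ndufa5, Ndufb8 and Ndufa13 of complex I, Cox7a1 of complex IV, and Atp5e and Atp5g3 of complex V. The same held for 1.96% of all genes and 8.57% of the brightest decile, so members separated no more often than the brightest genes did. In the other direction 0 members had groups apart (1.36% of all genes). The count of members with groups apart was 24 without WT 4, 14 without CKO 2 and 12 without CKO 4, and 2 with median scaling or cyclic loess. Shares over all genes are not given for these settings, so the counts cannot be read against a background.

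Complex I, the NADH dehydrogenase, holds a core that carries flavin and iron-sulphur clusters, and many accessory subunits around it. The core subunits described here had differences above 0. Ndufv1, which binds NADH and flavin, differed by 0.38 (SE 0.20) and its partner Ndufv2 by 0.15 (SE 0.15). Ndufs1, the large iron-sulphur subunit, differed by 0.27 (SE 0.18). Ndufs3 differed by 0.14 (SE 0.16), Ndufs7 by 0.20 (SE 0.15) and Ndufs8 by 0.34 (SE 0.19). The limma adjusted p was 0.724 or more for each. The core subunits Ndufv2 and Ndufs3 lay below 0 under cyclic loess, normexp and quantile normalization and the authors' values. Ndufa4 had the smallest difference of the complex, 0.0026 (SE 0.22).

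The accessory subunits held the complex I members with separated groups. Ndufa5, which sits in the arm that reaches into the matrix, stood at 3.99, 4.24, 4.03 and 4.22 in WT 1 to 4 and at 4.59, 4.42, 4.41 and 4.35 in CKO 1 to 4. The lowest CKO array lay above the highest WT array, with a difference of 0.32 (SE 0.15). Its other probe gave 0.18. Ndufb8, a subunit of the membrane arm, was nearly the same in all WT mice, at 4.48, 4.49, 4.47 and 4.51, and more spread in CKO, at 5.01, 4.81, 4.90 and 4.57. CKO 4 was only just above the WT mice, and the difference was 0.33 (SE 0.15). Ndufa13, a subunit that spans the membrane at the junction of the arms and is also known as GRIM-19, stood at 4.57, 4.91, 4.85 and 4.74 in WT and at 5.13, 5.03, 5.18 and 4.99 in CKO. Here the CKO mice were close together and WT 1 was the low array; the difference was 0.32 (SE 0.15).

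**Figure D5:**
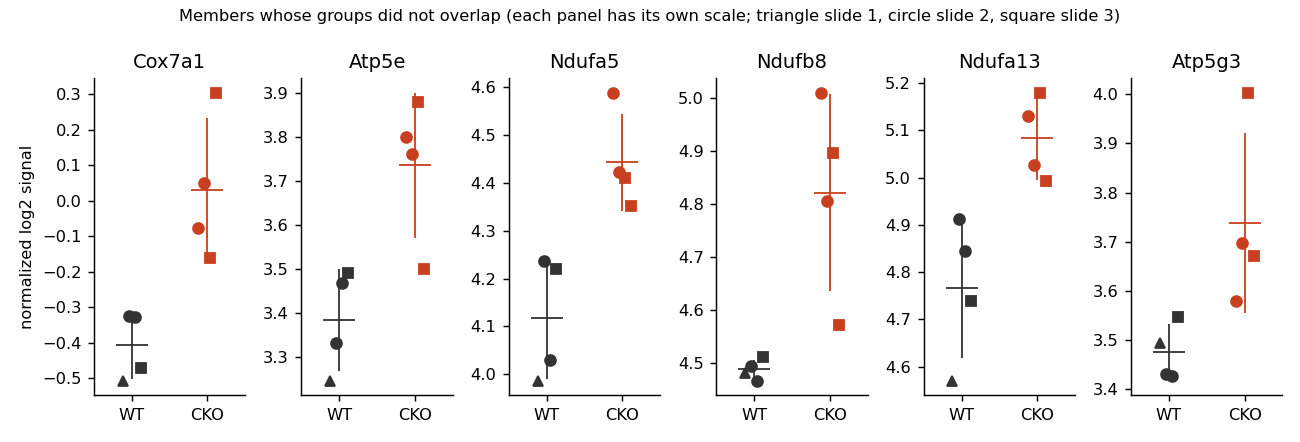
Normalized log2 signal (y axis, a scale of its own in each panel) of the 6 members whose groups did not overlap, for the 4 WT and 4 CKO arrays (x axis); lines are mean ± SD (n = 4) and shapes give the slide. In each panel the lowest CKO array is above the highest WT array, by the narrowest margin for Atp5e (3.50 against 3.49), and adjusted p is 0.724 for each.

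Complex II, succinate dehydrogenase, is the only complex with all subunits encoded in the nucleus, and its WT and CKO values overlapped for all 4. Sdha, the flavoprotein that oxidizes succinate, stood at 0.60, 0.37, 0.28 and 0.99 in WT 1 to 4 and at 0.73, 0.42, 1.30 and 1.05 in CKO 1 to 4. The slide 3 mice WT 4, CKO 3 and CKO 4 were the 3 highest, and the difference was 0.32 (SE 0.24). Sdhb, the iron-sulphur subunit, stood at 3.17, 3.37, 3.27 and 3.57 in WT and at 3.56, 3.37, 3.74 and 3.46 in CKO, a difference of 0.19 (SE 0.16). Its second probe gave -0.16, so its probes disagree in sign. The membrane anchors followed the same arrays. Sdhc stood at 1.32, 1.34, 1.24 and 1.86 in WT and at 1.60, 1.45, 1.69 and 1.72 in CKO, with WT 4 above every other mouse and a difference of 0.18 (SE 0.18). Sdhd stood at -0.39, -0.67, -0.51 and 0.11 in WT and at -0.29, -0.47, 0.20 and -0.10 in CKO, again with WT 4 among the CKO values, and a difference of 0.20 (SE 0.22). Within slide 3 alone Sdhc and Sdhd were at -0.15 and -0.061, and the median of complex II was -0.015.

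Complex III, the cytochrome bc1 complex, had all 9 members above their decile's median. Uqcrq, a small subunit next to cytochrome b, stood at 3.17, 3.19, 3.03 and 3.36 in WT 1 to 4 and at 3.85, 3.13, 3.56 and 3.81 in CKO 1 to 4. CKO 2 lay among the WT mice and the other 3 CKO mice above them, and the difference was 0.40 (SE 0.20). Uqcrb, which also binds near the quinone site, stood at 2.30, 1.96, 2.22 and 2.53 in WT and at 2.48, 2.41, 2.98 and 2.56 in CKO. WT 4 was above CKO 1 and CKO 2, and the difference was 0.36 (SE 0.19). Uqcrh, the hinge subunit that helps cytochrome c1 meet cytochrome c, stood at 3.50, 3.45, 3.46 and 3.63 in WT and at 3.60, 3.59, 4.13 and 3.99 in CKO. Only CKO 3 and CKO 4 stood clear of WT 4, and the difference was 0.32 (SE 0.18). Of the core, cytochrome c1 (Cyc1) differed by 0.23 (SE 0.15), the Rieske iron-sulphur protein Uqcrfs1 by 0.18 (SE 0.21), and the large core proteins Uqcrc1 and Uqcrc2 by 0.21 (SE 0.17) and 0.25 (SE 0.15). Cycs, which carries electrons from complex III to complex IV, had the largest difference of all 81 members, 0.44 (SE 0.20). The probe that represents it is placed on chromosome 19, away from the gene on chromosome 6, and its other probes gave 0.13 on chromosome 6 and -0.013 on chromosome 19.

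In complex IV, cytochrome c oxidase, the nuclear-encoded subunits surround a catalytic core that mitochondrial DNA encodes. Cox7a1, the isoform of subunit VIIa best known from heart and skeletal muscle, stood at -0.51, -0.32, -0.33 and -0.47 in WT 1 to 4 and at -0.078, 0.051, -0.16 and 0.30 in CKO 1 to 4. All CKO mice lay above all WT mice, and here CKO 3, the highest CKO array for 46 members, was the lowest. The difference of 0.44 (SE 0.16, adjusted p = 0.724) ranged from 0.31 (within slide 2) to 0.58 (median scaling) over all alternatives, and was 0.45 with quantile normalization and 0.50 in the authors' values. Its counterpart Cox7a2, the isoform of most tissues, differed by 0.23 (SE 0.31). Cox6b2, known from testis, stood at -1.38, -1.56, -1.86 and -1.90 in WT and at -1.55, -1.19, -1.70 and -0.98 in CKO, overlapping groups with a difference of 0.32 (SE 0.21); the general isoform Cox6b1 differed by 0.037 (SE 0.17). Cox6c stood at 2.94, 2.67, 2.69 and 2.90 in WT and at 2.94, 2.82, 3.29 and 3.05 in CKO, with overlap and a difference of 0.22 (SE 0.16). Cox5a and Cox5b, which flank the core, differed by 0.23 (SE 0.18) and 0.15 (SE 0.20).

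Most probes of isoforms that other tissues use gave signal above background. The muscle forms Cox6a2, Cox7a1 and Cox8b and the testis form Cox6b2 were well above background on 8 of 8 arrays. So were Cox6a1, Cox6b1, Cox7a2, Cox7b and Cox8a, while Cox7b2 and Cox8c were not on any. Of all 55681 probes, 44316 were well above background on at least 4 arrays, a looser threshold than 8 of 8. The share of all probes at 8 of 8 is not given, so detection of the isoforms cannot be read against it. Cox8b was dim, at -3.24 in WT and -3.32 in CKO and in decile 2 of mean signal. Cox6b2, Cox6a2 and Cox7a1 lay in deciles 5, 6 and 7. Cox6a1 and Cox6a2 differed by 0.12 (SE 0.16) and 0.094 (SE 0.21), Cox7b by 0.17 (SE 0.15), Cox8a by 0.22 (SE 0.16) and Cox8b by -0.082 (SE 0.44). That standard error was the widest of any member. The other probe of Cox8a gave 0.44 (SE 0.18), with groups that did not overlap.

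The catalytic head of complex V is built of alpha and beta subunits around a turning shaft. The alpha subunit Atp5a1 differed by 0.24 (SE 0.18), the beta subunit Atp5b by 0.076 (SE 0.16) and the gamma subunit Atp5c1, which turns inside the head, by 0.11 (SE 0.17). Both probes of Atp5c1 are placed on chromosome 13, where the copy Atp5c1-ps lies, and not on chromosome 2 with the gene; the other probe gave 0.34. Atp5b lay below 0 under quantile normalization (-0.051), cyclic loess, normexp and quantile normalization and the authors' values (-0.16). Atp5e, the epsilon subunit of the central stalk, stood at 3.25, 3.33, 3.47 and 3.49 in WT 1 to 4 and at 3.80, 3.76, 3.88 and 3.50 in CKO 1 to 4. CKO 4 was level with the highest WT mice and the other 3 CKO mice were clear of them, with a difference of 0.35 (SE 0.15, adjusted p = 0.724). It was 0.21 with quantile normalization and 0.16 in the authors' values.

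Subunit c, the ring that turns as protons pass, comes from 3 genes that encode the same mature protein. Atp5g3 stood at 3.49, 3.43, 3.43 and 3.55 in WT and at 3.58, 3.70, 4.00 and 3.67 in CKO, separated by little between WT 4 and CKO 1, with a difference of 0.26 (SE 0.15). Atp5g1 and Atp5g2 differed by 0.23 (SE 0.16) and 0.16 (SE 0.14), both with overlapping groups. Atp5j2, the f subunit of the membrane part, stood at 2.87, 3.14, 3.18 and 3.45 in WT and at 3.45, 3.32, 3.63 and 3.31 in CKO. Its groups overlapped through WT 4, and the difference was 0.27 (SE 0.17). Atp5sl, singled out after its value was seen, is the member furthest below 0, at -0.13 (SE 0.21); it is named like a subunit but known as an assembly factor of complex I.

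Different probes of a gene mostly gave one sign. Of the 112 member probes tested 106 had differences above 0, and in 19 of the 22 genes with several tested probes all of them did. The exceptions were Ndufv3 (-0.18 to 0.16 over 3 probes), Sdhb and Cycs. Among the 25 probes placed on another chromosome 24 were above 0, with a median of 0.23, against 0.22 for the other probes.

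None of the listed genes that work with the subunits passed the adjusted threshold. Of 8 tested subunits and partners outside the name pattern 7 were above 0, with a median of 0.25 against 0.16 for their deciles. Atpif1, the inhibitor that stops ATP synthase from running backwards, differed by 0.65 (SE 0.18) with groups that did not overlap, and Cox4i1, a large subunit of complex IV, by 0.30 (SE 0.15). The 8 carriers that exchange energy between mitochondria and cytosol were all above 0, with a median of 0.27 against 0.16 for their deciles. Of these, 2 of 8 passed an unadjusted p under 0.05 as higher, where 2.5% of all genes and 7.08% of the brightest decile did. These were the outer membrane channel Vdac1 (0.48, SE 0.14) and the mitochondrial creatine kinase Ckmt1 (0.46, SE 0.15). Enzymes of the citric acid cycle were above 0 in 14 of 16, with a median of 0.24 against 0.14 for their deciles and 0 of 16 under that p; the 2 with the smallest p were Dlst (0.44) and Sucla2 (0.38).

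Assembly factors were above 0 in 34 of 45, with a median of 0.18 against 0.0035 for their deciles and 0 of 45 at that p. The copper chaperone of complex IV, Sco1, stood lower in CKO (-0.90, SE 0.41), and the complex III factor Uqcc3 at 0.43 (SE 0.20). The 12 regulators of mitochondrial biogenesis had a median of 0.077 against -0.060 for their deciles, with 9 above 0; the ETS partner Gabpb1 was at 0.25 and the mitochondrial transcription factor Tfb2m at 0.28. Ppargc1a (PGC-1α), Nrf1 and Tfam, the best known of these regulators, differed by 0.12 (SE 0.17), 0.095 (SE 0.15) and 0.072 (SE 0.17). Of 6 probes placed on mitochondrial DNA, found after the data were seen, 5 were above 0 with a median of 0.26. All 6 lay in the brightest decile, whose median difference was 0.16. Whether the RNA they read was carried by tagged ribosomes was not tested. The probes gave 0.33 (SE 0.22) for NADH dehydrogenase 1 and 0.25 (SE 0.17) for NADH dehydrogenase 2. For NADH dehydrogenase 4 the value was 0.28 (SE 0.21) and for cytochrome b 0.31 (SE 0.20). The 2 probes described as NADH dehydrogenase 6 gave 0.18 (SE 0.17) and -0.0068 (SE 0.19).

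Marker lists of cell types were measured beside the members, and their part in the members' differences was not tested. Each list's median is given with the median over its genes' deciles, since bright and dim genes differ. All 14 excitatory neuron markers were well above background on 8 of 8 arrays. Of these, 8 were above 0, with a median of 0.065 against 0.15 for their deciles. Camk2a and Slc17a7 differed by 0.057 (SE 0.19) and 0.24 (SE 0.19). The markers with the smallest unadjusted limma p were lower in CKO, Fezf2 by -0.37 (SE 0.15) and Prox1 by -0.41 (SE 0.18). Against a decile value of 0.0035 for each, medians were 0.15 for interneuron markers (8 of 9 above 0), 0.24 for astrocytes (8 of 10) and 0.19 for oligodendrocytes (9 of 11). Microglia markers had a median of 0.24 (10 of 11 above 0) against -0.13 for their deciles. The median was 0.40 for choroid plexus and ependyma (6 of 6 above 0) against -0.20, and -0.025 for endothelium and pericytes (5 of 10 above 0) against -0.17. The largest was Ttr, transthyretin of the choroid plexus, at 1.16 (SE 0.36). Some probes were far brighter than others of their list. Itgam and Csf1r of the microglia list stood at 5.83 and 4.02 in WT, against -1.72 for Cx3cr1 and -2.00 for Tmem119. Lhx6 of the interneuron list stood at 5.83 in WT, against 0.18 for Gad1. Whether such probes read the cell type of their list was not tested. Centred on each gene's mean, the microglia list had its highest median in CKO 2, at 0.45, against -0.24 to 0.15 in WT and -0.027 to 0.19 in the other CKO mice. The choroid plexus list was likewise highest in CKO 2, at 0.61, while the members were lowest among CKO mice there. The excitatory neuron list was also lowest in CKO 2, at -0.19, against 0.068 to 0.10 in the other CKO mice and -0.17 to 0.085 in WT. WT 3 and CKO 2, the lowest of their groups for this list, were the only females. The part of sex in these array values was not tested.

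Promoters of the members carry the letters of a factor known to drive mitochondrial genes more often than promoters at large. In RefSeq sequence of GRCm38.p6, from 250 bases before to 50 after the start site, the NRF1 letters, GCGCA and GCGC with 1 base of any kind between them, occurred on either strand in 17 of the 69 members with a promoter there, or 24.6%. They occurred in 5.19% of all 27025 genes with a promoter and in 13.6% of the 1568 from the brightest decile. YY1 letters (AAGATGGC) were found in 15.9% of members, 3.19% of all and 6.06% of the brightest decile, and ETS letters (CCGGAAG) in 23.2%, 9.93% and 18.8%. A core of CTCF's motif (CC, AG and GGC, in that order, with gaps of 3 and 2 bases) was found in 15.9% of members, 9.84% of all and 15.6% of the brightest decile. SP1 letters (GGGCGG) stood in 40.6%, 38.2% and 67.6%, and TATAAA in 10.1%, 15.7% and 10.0%. An ETS match shared bases with an SP1 match in 1 member promoter, and no other matches overlapped. The stretches with NRF1 letters in capitals are shown for 5 of the members, as examples of the letters in their surroundings.

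Sdha, chr13:74350241-74350348, minus strand: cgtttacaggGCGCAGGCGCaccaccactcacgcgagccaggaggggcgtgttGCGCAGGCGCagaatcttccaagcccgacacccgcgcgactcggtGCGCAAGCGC
Cox6a1, chr5:115349056-115349130, minus strand: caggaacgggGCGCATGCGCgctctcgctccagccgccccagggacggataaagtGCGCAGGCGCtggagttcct
Ndufa5, chr6:24527697-24527726, minus strand: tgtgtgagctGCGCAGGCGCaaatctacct
Ndufa11, chr17:56717692-56717721, plus strand: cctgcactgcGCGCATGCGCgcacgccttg
Atp5g2, chr15:102671070-102671099, minus strand: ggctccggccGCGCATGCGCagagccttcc

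The letters occur 3 times in the stretch from Sdha, 2 times in that from Cox6a1 and 1 time in the others. Members with and without them had like differences: the median was 0.20 over the 17 tested members with NRF1 letters and 0.23 over the 51 without. For the CTCF letters the medians were 0.21 over 11 members and 0.22 over 57. A match of letters is a description of the sequence and shows no binding.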

How the data were processed

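Spot intensity in the red channel came from the deposited scanner files, made with Agilent Feature Extraction 11.5 per the submitters' processing notes, with background subtraction and spatial and multiplicative detrending per the file headers. RNA had been amplified with a whole transcriptome kit and carried the dye Cy5, per the labels' protocols. A value table that the authors deposited beside them holds an intensity on a linear scale whose ranks followed the processed signal (Spearman correlation 0.9988 to 0.9995), with array medians of 1263 to 1645 in WT and 1362 to 1987 in CKO. How it was normalized or centred is not given in the sources used here. Other deposited columns used are outlier and background flags.

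Of 55681 probes, on 59305 spots that are no controls, 44316 were well above background on at least 4 of 8 arrays. Per array, 78.1% (WT 4) to 81.6% of spots were well above background in WT and 72.4% (CKO 3) to 79.3% in CKO. No spot was saturated. WT 4 and CKO 3, the lowest of their groups here, were also the arrays with the highest median member, 0.10 and 0.28. The part of this in the members' differences was not tested. Outlier spots were dropped, spots of a probe averaged, and the probe of highest mean signal stood for its gene (29529 genes). The number of arrays limits the precision. RefSeq names (GRCm38.p6) matched 28331 probes; others kept the file's name. The genotypes were fitted in limma (version 3.58.1, R version 4.3.3) by lmFit and eBayes; tests were two-sided, Benjamini-Hochberg adjusted over the 29529 genes, and called at 0.05. On simulated data for this comparison over 29529 genes, the fit found 24 of 100 genes given a log2 change of 1 and 79 of 100 given one of 2, with 5 false calls.

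The members, the 13 gene lists and the rules were chosen with earlier results of these data known. Named with array values were all complex II members and, per other complex, the 3 members with the smallest unadjusted p. Core subunits, isoforms and the 2 genes with the smallest p of each pathway list were named too. The values of 1 member are not reported here. The mitochondrial DNA list matched no gene name. Alternatives (27) were other scalings, the authors' values, filters, probe rules, prior variance, array weights, slide, sex, a replicate block and each array left out.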

Additional observations from a re-analysis of the deposited data

Results flagged for a closer look

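In 82 groups of 4 arrays tested, 3 held an array set far from the others, where chance flags about 1 in 20. Sdhc in WT 4 was at 1.86, against 1.24 to 1.34 in the other WT mice. Ndufs8 in WT 4 was at 1.82, against 1.30 to 1.38 in the other WT mice. The median of complex IV in CKO 2 was -0.14, against 0.094 to 0.14 in the other CKO mice.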

How the results depend on the processing

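Over 27 alternatives 0 members passed the adjusted threshold, with a smallest adjusted p of 0.290 (Cox7a1, array weights), and the medians of all members and of each complex stayed above 0, except that of complex II within slide 3 (-0.015). The replicate numbers did not pair the mice (correlations of -0.32, 0.39, -0.42 and 0.068 for numbers 1 to 4). With the replicate block 0 genes passed, and the members' median was 0.22. Leaving out 1 array gave medians of 0.18 (without CKO 3) to 0.29 (without CKO 2) for all members, 6 to 24 members with groups apart, and 0 to 2 genes past the threshold. With groups apart were 2 members under median scaling and under cyclic loess. The count was 15 in males only, 42 within slide 2 and 48 within slide 3 (43 of them higher), where fewer arrays make separation easier. Shares over all genes are not given for these alternatives, so none of these counts is read as a result about the members.

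Genes past the threshold numbered 1 in all. They were 0 with quantile normalization, the authors' values, each probe tested, within slide 2, quantile normalization with the slide block, or males only. They were 2 with no filter, 3 with sex as a covariate, 4 with normexp and quantile normalization or a trended and robust prior, 5 with probes well above background on all arrays, 11 with array weights and 13 with the slide as a random block. The median of complex III was 0.39 with median scaling, 0.079 with cyclic loess, 0.092 with normexp, 0.028 in the authors' values and 0.073 with quantile normalization and the slide block. That of complex IV was 0.36 with median scaling, 0.090 with quantile normalization, 0.087 with cyclic loess, 0.072 with normexp and 0.038 in the authors' values. The authors' values gave 0.066 for all members and 0.046 for complex I. The cause was not tested.

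Among named members 28 values changed sign and 917 did not. Under cyclic loess these were Ndufv2 (-0.0042), Ndufs3 (-0.014), Atp5b (-0.063) and Atp5g2 (-0.018), and under quantile normalization Atp5b (-0.051). With normexp they were Ndufv2 (-0.086), Ndufs3 (-0.0049), Atp5b (-0.089), Atp5c1 (-0.026) and Atp5g2 (-0.0050). In the authors' values they were Sdhb (-0.055), Ndufv2 (-0.15), Ndufs3 (-0.066), Atp5b (-0.16), Atp5c1 (-0.036) and Atp5g2 (-0.069). Within slide 2 it was Cox5b (-0.0053), and within slide 3 Sdhc (-0.15), Sdhd (-0.061), Ndufv2 (-0.016), Ndufs1 (-0.055), Ndufs3 (-0.068), Cyc1 (-0.029) and Atp5c1 (-0.012). With quantile normalization and the slide block they were Sdhb (-0.013), Ndufv2 (-0.016), Ndufs3 (-0.0033) and Atp5c1 (-0.035). WT 1 was alone on its slide, so it adds nothing to comparisons within slides.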
